A study of Mus musculus with 8 samples.

Results

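Splicing regulators are RNA-binding proteins that decide which exons of a pre-mRNA are kept. The genes described here are 50 protein-coding genes of the mouse liver: the 20 genes whose symbols begin with Hnrnp, the 11 numbered Srsf genes, and 19 further regulators taken by name. These 19 are Tra2a, Tra2b, Ptbp1, Ptbp2, Ptbp3, Esrp1, Esrp2, Mbnl1, Mbnl2, Mbnl3, Rbfox2, Celf2, Qk, Rbm5, Rbm10, Rbm25, Rbm39, U2af1 and U2af2. They were picked by symbol among 45706 gene rows, with no use of their measured values. Of 52 rows whose names fitted, 2 were processed pseudogenes and were left out.

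SR proteins bind exonic enhancers and recruit the splicing machinery, whereas many hnRNP proteins bind silencers and act against them. The U2AF subunits mark the 3′ splice site, and tissue-restricted regulators such as the ESRP, MBNL, CELF and RBFOX proteins set cell-type programmes of exon use. Many SR and hnRNP genes limit their own output by splicing a poison exon into their mRNA, which then goes to nonsense-mediated decay. In the liver, ESRP2 and SRSF3 are known for directing the adult splicing programme of hepatocytes.

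RNA was sequenced from whole livers of 4 mice labelled HuR KO and 4 mice labelled HuR WT, all of strain background C57BL/6, 1 library per mouse. HuR is the RNA-binding protein encoded by Elavl1, which binds AU-rich and U-rich stretches of introns and 3′UTRs. Which exons were deleted, by what Cre driver or promoter if any, and at what age, the labels do not say. The titles carry animal numbers in a pair of series: WT replicate 3 and KO replicates 3 and 4 have numbers from 98 to 100, and the other 5 libraries have numbers of 4 digits.

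Elavl1 itself measured 49.4, 56.0, 49.1 and 45.6 CPM (read counts scaled to a common library size) in the libraries labelled KO, against 32.7, 45.7, 42.9 and 46.6 CPM in those labelled WT. Its log2 fold change was 0.25 (SE 0.11, edgeR adjusted p = 0.258), so its gene count was no lower under the KO label. Without knowing the deleted part, this count does not check the genotype, and KO and WT below stand for the labels. Total counts ran from 18649618 to 31249286 per library, and the splicing regulators took 0.358% to 0.382% of them in KO livers and 0.358% to 0.391% in WT livers. Over all genes WT replicate 3 lay 0.586 log2 units (root mean square) from the KO libraries and 0.597 from the other WT libraries. The other WT libraries lay 0.637 to 0.662 from the KO libraries and 0.534 to 0.566 from the rest of the WT group. Over the splicing regulators alone, WT replicate 3 was nearer to WT (0.410 from KO, 0.323 from WT), and WT replicate 4 was furthest off (0.569 from KO, 0.407 from WT). Every regulator weighs alike in these distances, also those with few reads. WT replicate 4 held 1 Esrp1 read, against 29 to 46 in the KO libraries, and the part of single genes in the distances was not tested. Mitochondrial transcripts took 6.60% to 7.66% of counts in KO libraries and 5.30% to 6.46% in WT libraries. Hepatocyte markers summed to 129326 to 154201 CPM in KO livers and 142852 to 159355 CPM in WT livers, so the defining markers of the labelled tissue were present. In bulk tissue, fewer cells of a type and less RNA per cell cannot be told apart.

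Promoter sequences were available for 43 of the 50 genes, in 62 windows of 300 bases (250 before and 50 after a RefSeq transcription start, assembly GRCm38.p6). They are shown for the 3 genes on which the comparison turns most: Celf2, with a pair of its start sites, and Srsf2 and Tra2a. Capitals mark CG dinucleotides.
Celf2, chr2:6871986-6872285, minus strand: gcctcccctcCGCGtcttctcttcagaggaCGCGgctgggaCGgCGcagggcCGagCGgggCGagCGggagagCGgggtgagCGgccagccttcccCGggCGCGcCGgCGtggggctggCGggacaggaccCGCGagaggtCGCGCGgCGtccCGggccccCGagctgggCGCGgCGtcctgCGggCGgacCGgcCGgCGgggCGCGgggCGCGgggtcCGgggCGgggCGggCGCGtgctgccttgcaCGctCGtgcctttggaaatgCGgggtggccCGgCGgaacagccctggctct
Celf2, chr2:7396149-7396448, minus strand: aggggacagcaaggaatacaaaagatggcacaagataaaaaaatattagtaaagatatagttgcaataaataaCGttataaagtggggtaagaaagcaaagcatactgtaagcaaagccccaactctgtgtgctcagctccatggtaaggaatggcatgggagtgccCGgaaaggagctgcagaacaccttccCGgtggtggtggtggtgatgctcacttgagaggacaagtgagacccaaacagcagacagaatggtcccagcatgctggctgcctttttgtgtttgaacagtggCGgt
Srsf2, chr11:116853045-116853344, minus strand: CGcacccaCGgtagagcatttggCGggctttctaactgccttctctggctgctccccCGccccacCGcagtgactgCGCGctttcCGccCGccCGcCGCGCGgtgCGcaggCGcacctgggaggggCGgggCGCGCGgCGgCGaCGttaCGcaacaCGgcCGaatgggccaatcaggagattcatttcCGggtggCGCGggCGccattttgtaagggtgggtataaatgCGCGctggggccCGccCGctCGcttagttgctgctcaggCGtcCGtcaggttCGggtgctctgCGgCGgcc
Tra2a, chr6:49264003-49264302, minus strand: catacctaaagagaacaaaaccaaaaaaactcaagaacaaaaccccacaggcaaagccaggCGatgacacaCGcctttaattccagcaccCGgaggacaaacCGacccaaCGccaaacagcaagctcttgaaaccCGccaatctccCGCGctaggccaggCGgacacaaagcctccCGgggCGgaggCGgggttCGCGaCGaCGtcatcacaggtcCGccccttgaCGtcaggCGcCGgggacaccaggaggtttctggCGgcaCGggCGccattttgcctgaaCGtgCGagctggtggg
Of the Celf2 pair shown, the downstream window held 48 CG in 80.3% G and C and the far upstream one 4 CG. Other Celf2 windows, not shown, held 6, 6 and 8 CG, the last lying further downstream. The Srsf2 and Tra2a windows held 39 and 25 CG. The median over the regulators' windows was 27 CG, against 7 over all 32851 windows of the table, and 38 of 43 genes had a window with at least 20. Such windows made up 82.3% of the regulators' windows and 26.5% of all windows. The GC box (GGGCGG, either strand) was found in 74.2% of the regulators' windows and 35.7% of all windows. The ETS motif (CCGGAA) was found in 29.0% of the regulators' windows and 14.9% of all, and the CCAAT box in 46.8% and 37.4%. TATAAA was found in 11.3% of the regulators' windows and 13.6% of all, and CACGTG in 11.3% and 7.15%. A whole cAMP response element (TGACGTCA) was in 1.61% of the regulators' windows and 1.79% of all, and Tra2a was the 1 regulator that held it. All windows cover 27025 genes, not only those tested here. The regulators' windows were also richer in G and C (median 64.2% against 52.7%). The shares were not adjusted for this or for the choice of genes. Counts for 1 gene sum all its start sites, so the data do not tell which Celf2 promoter was used.

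Levels differed widely between the regulators. To compare genes, CPM was divided by the exon length of the gene row, giving CPM per kb. The 49 genes with enough reads to be tested ran from 0.0862 CPM per kb for Mbnl3 to 77.4 for Hnrnpa2b1 (means over all 8 libraries), with a median of 12.6. Hnrnpa2b1, which packages nascent transcripts, stood at 75.5 ± 4.03 CPM per kb in KO livers and 79.2 ± 4.39 in WT livers (SD, n = 4 each here and below). Srsf5, the most abundant SR gene per length, stood at 59.9 ± 7.15 and 57.6 ± 6.97 CPM per kb in KO and WT livers. Hnrnpab had 52.4 ± 2.15 CPM per kb in KO livers and 56.3 ± 2.45 in WT livers, and Srsf2 had 44.7 ± 2.83 and 56.0 ± 4.58. In WT livers Srsf5, Hnrnpab and Srsf2 differed by less than their spread. Esrp2 stood lower, at 27.4 ± 1.19 CPM per kb in KO livers and 24.1 ± 0.514 in WT livers. Rbm39 stood at 23.6 ± 1.55 CPM per kb in KO livers and 23.5 ± 2.10 in WT livers, which in WT livers did not differ from Esrp2 beyond the spread.

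At the low end, Hnrnpr was the lowest hnRNP per length, at 1.58 ± 0.139 CPM per kb in KO livers and 1.68 ± 0.178 in WT livers. This rank depends on its annotated exon length of 22199 bases. In reads it was not the lowest, with 753 to 1169 per library against 143 to 296 for Hnrnpa1. Hnrnpa1 read only 4.38 ± 0.475 CPM per kb in KO livers and 5.01 ± 0.722 in WT livers, but reads that map to several places were left out, so the level of a gene with many near-identical copies is uncertain. Srsf12 was not tested: it collected 11 reads over the 4 KO libraries and 1 read over the 4 WT libraries.

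**Figure D1:**
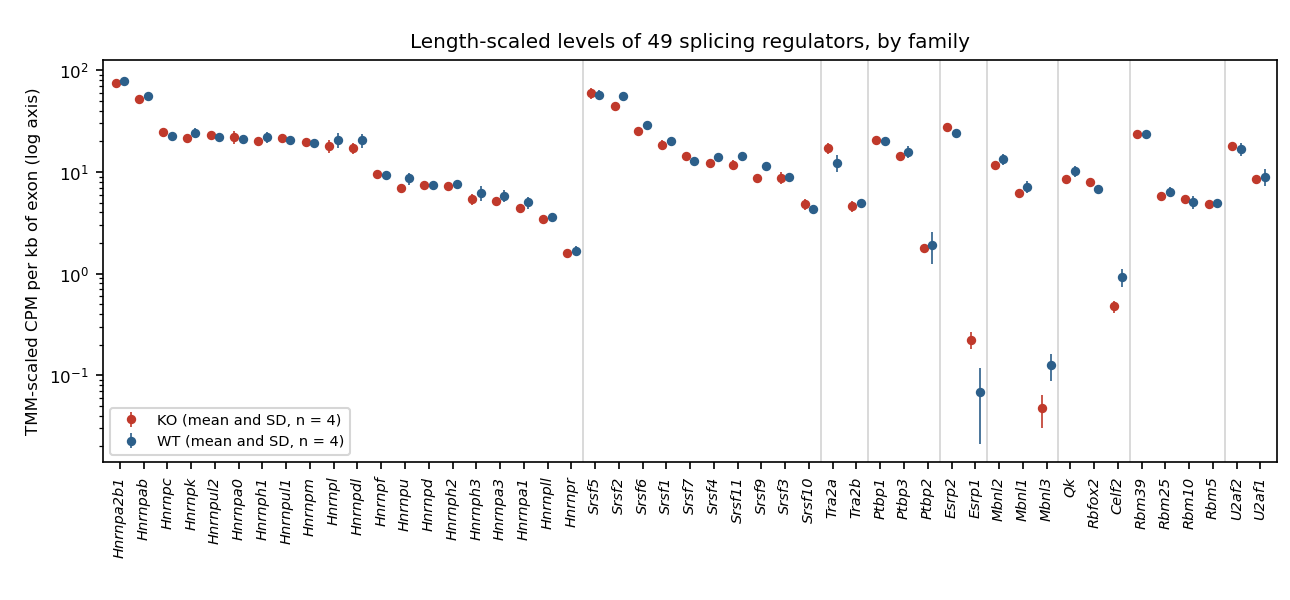
Level of each splicing regulator in CPM per kb of exon (log axis) in KO and WT livers, grouped by family; points are means of 4 libraries and bars the SD. Hnrnpa2b1 is highest at 77.4 CPM per kb over all libraries and Mbnl3 lowest of the tested genes at 0.0862, and for most genes the KO and WT points lie close together.

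The comparison of KO with WT livers asks which regulators differ in RNA level between the genotypes. In most of them no difference larger than the spread between mice was found. By edgeR's quasi-likelihood test with Benjamini-Hochberg adjustment over 14645 genes (adjusted p under 0.05), 1 of 49 regulators, Celf2, was lower in KO livers, and 0 were higher. Over all genes 1.37% were called lower, 2.32% higher and 3.69% in either direction, so the regulators' share (2.04% lower) lay near the background. At an unadjusted p under 0.05, 9 regulators were lower (18.4%, against 8.84% of all genes) and 4 higher (8.16%, against 9.2%). DESeq2 called 4 lower (Celf2, Srsf2, Srsf9 and Mbnl3) and 2 higher (Esrp1 and Tra2a), and limma-voom called Celf2 alone. DESeq2 also called more of all genes, 3.38% lower and 4.19% higher.

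Small effects were bounded well. The 95% interval of the fold change stayed within 1.5-fold in either direction for 44 of the 49 regulators (89.8%), against 53.8% of all genes tested. The exceptions were Esrp1, Mbnl3, Celf2, Tra2a and Srsf9. The regulators were also measured with more reads than most genes, with a median of 57.9 CPM against 12.6 and a median SE of 0.10 against 0.16 log2 units. Their median log2 fold change was −0.09, against −0.0046 over all genes, and 32 of 49 lay below 0 (65.3%, against 50.8% of all genes). The median size of a change, whatever its sign, was 0.13 log2 units against 0.17 for all genes.

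The libraries of the groups did not overlap for 7 regulators that were lower in KO livers (14.3%, against 5.01% of all genes) and for 2 that were higher (4.08%, against 6.19%). The lower ones were Celf2, Srsf2, Srsf9, Mbnl3, Srsf4, Qk and Srsf6, and the higher ones Esrp1 and Esrp2. Apart from Celf2 none of these passed the adjusted threshold.

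**Figure D2:**
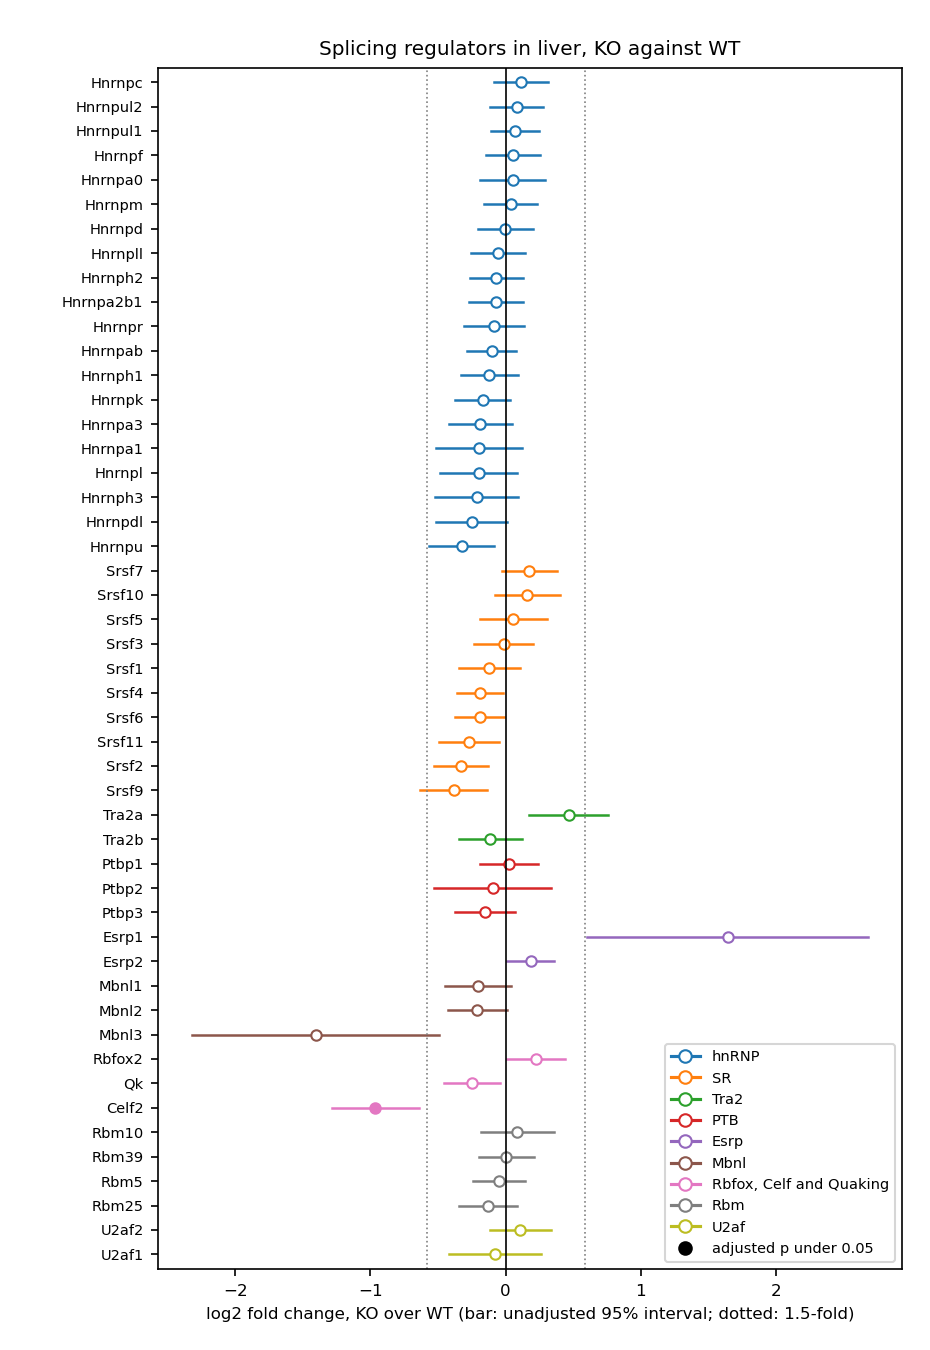
Log2 fold change, KO over WT, of the 49 tested splicing regulators with its 95% interval from the edgeR test, by family; dotted lines mark a 1.5-fold change in either direction and a filled point an adjusted p under 0.05. Celf2 alone passed the adjusted threshold, and 44 intervals lie between the dotted lines.

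Celf2 fell in KO livers. It encodes a CELF-family protein that binds GU-rich RNA and acts on exon choice in the nucleus and on mRNA stability and translation in the cytoplasm. The gene (ENSMUSG00000002107) lies on the minus strand at chr2:6539694-7509563. It measured 12.1, 13.9, 10.1 and 13.2 CPM in the KO libraries, against 27.3, 29.1, 19.7 and 20.02 CPM in the WT libraries. All KO libraries lay below all WT libraries, and WT replicates 1 and 2 were the highest. The means were 12.3 ± 1.65 CPM in KO livers and 24.0 ± 4.87 CPM in WT livers, a 1.95-fold lower level (95% interval 1.56 to 2.44) with a log2 fold change of −0.96 (SE 0.15, edgeR adjusted p = 0.00324). Each library held 260 to 749 Celf2 reads. The log2 fold change was −0.97 among the 4-digit animals and −0.76 among the animals numbered 98 to 100, where WT is 1 library. The gene was called in all 18 alternative analyses, with log2 fold changes from −1.05 to −0.76 and adjusted p from 7.59e-07 to 0.0164. One of these is the fit of the animals numbered 98 to 100, in which the single WT library is assumed to vary like the KO libraries.

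Celf2 is also expressed by lymphocytes and endothelial cells, so their markers are given beside it. The 14 lymphocyte markers summed to 27.7 to 35.5 CPM in KO livers and 28.5 to 46.7 CPM in WT livers. Of the 12 tested, edgeR called 0, with 0 higher and 1 lower at an unadjusted p under 0.05 and 1 lower by DESeq2, 0 by limma-voom. None was at 0 in all libraries, and Cd79a had a mean count under 10. The 12 endothelial markers summed to 589 to 654 CPM in KO livers and 547 to 606 CPM in WT livers, and edgeR, DESeq2 and limma-voom each called 0 of 12, with 3 higher and 0 lower at an unadjusted p under 0.05. WT replicates 1 and 2 were highest in both Celf2 and lymphocyte markers, while WT replicate 4, with 28.5 CPM of lymphocyte markers, still held 20.02 CPM of Celf2. The part of these cells in the Celf2 difference was not tested.

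**Figure D3:**
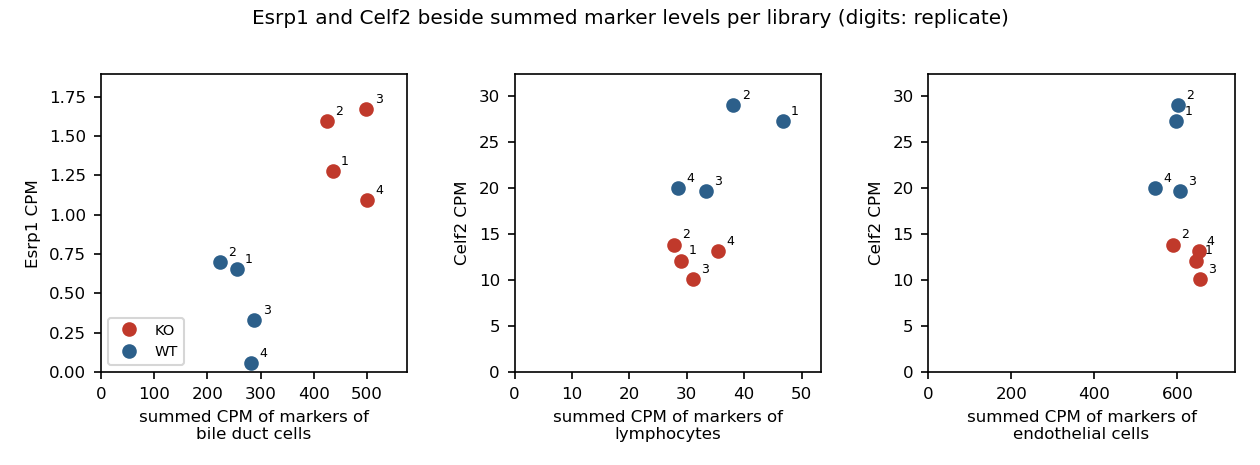
Esrp1 (CPM) against summed bile duct markers, and Celf2 (CPM) against summed lymphocyte and endothelial markers; each point is a library, with its replicate number. Bile duct markers separate the 4 KO libraries (424 to 500 CPM) from the 4 WT libraries (224 to 288 CPM), whereas lymphocyte markers overlap.

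Other regulators of tissue-specific exons showed smaller differences. Qk encodes Quaking, a STAR-family protein that binds ACUAA-type motifs and also promotes circular RNA formation. It measured 86.2, 83.8, 82.7 and 85.9 CPM in KO livers, against 106, 116, 88.4 and 92.8 CPM in WT livers. These groups did not overlap, but the gap to WT replicate 3 was small and the test was not passed (log2 fold change −0.25, SE 0.10, edgeR adjusted p = 0.18). Rbfox2, which reads GCAUG motifs, measured 67.4, 57.5, 54.7 and 53.1 CPM in KO livers, against 52.3, 47.8, 54.3 and 44.4 CPM in WT livers. Its groups overlapped through WT replicate 3 (log2 fold change 0.23, edgeR adjusted p = 0.251), and the value was −0.01 among the animals numbered 98 to 100.

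Of the 10 tested SR genes, 4 had all KO libraries below all WT libraries and 0 had the reverse, against 5.01% and 6.19% of all genes. None was called by edgeR or limma-voom, 5 were lower and 0 higher at an unadjusted p under 0.05 (8.84% and 9.2% of all genes), and DESeq2 called Srsf2 and Srsf9 lower. Srsf2 (chr11:116849901-116853094) encodes SC35, an exon-definition factor also tied to transcription elongation. It measured 124, 144, 131 and 129 CPM in KO livers, against 167, 182, 149 and 164 CPM in WT livers. The groups did not overlap, the nearest libraries being KO replicate 2 and WT replicate 3. The log2 fold change was −0.33 (SE 0.09, edgeR adjusted p = 0.0686), and it was −0.35 among the 4-digit animals and −0.20 among the others.

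Srsf9, which encodes a small SR protein close to SRSF1, measured 11.6, 11.5, 12.0 and 12.3 CPM in KO livers, against 14.5, 16.6, 14.0 and 16.7 CPM in WT livers. The KO libraries were tightly grouped below every WT library (log2 fold change −0.38, SE 0.12, edgeR adjusted p = 0.0827). Without WT replicate 3, Srsf2 and Srsf9 were called, with edgeR adjusted p of 0.0231 and 0.0448. In that fit 3.57% of all genes were called lower and 4.75% higher. WT replicate 3 is the only WT library of its number series, so that fit has KO but no WT libraries of this series. Each gene was called in 2 of 18 alternatives, that fit and DESeq2.

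Srsf4 and Srsf6 encode the long SR proteins SRp75 and SRp55. Srsf4 measured 44.9, 43.0, 44.2 and 44.4 CPM in KO livers, against 53.0, 50.9, 48.8 and 48.6 CPM in WT livers. Srsf6 measured 121, 126, 122 and 119 CPM in KO livers, against 129, 146, 138 and 144 CPM in WT livers. Both sets of libraries were separate, yet the differences were small, at −0.19 log2 units each (edgeR adjusted p = 0.221 for Srsf4 and 0.241 for Srsf6). Srsf11 had a log2 fold change of −0.27 (edgeR adjusted p = 0.182) with overlapping groups.

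The remaining SR genes gave no separation. Srsf5, which is linked to insulin-responsive splicing, measured 219, 210, 260 and 266 CPM in KO livers, against 230, 228, 264 and 196 CPM in WT livers (log2 fold change 0.06, edgeR adjusted p = 0.851). Within each genotype its values differed by about as much as between them. Srsf7, whose product also acts in mRNA export, measured 33.3, 36.1, 30.8 and 30.8 CPM in KO livers, against 28.0, 29.9, 31.0 and 27.3 CPM in WT livers (log2 fold change 0.17, edgeR adjusted p = 0.358). WT replicate 3 lay above KO replicates 3 and 4, and the log2 fold change among the animals numbered 98 to 100 was −0.01. Srsf1, Srsf3 and Srsf10 had log2 fold changes of −0.12, −0.01 and 0.16, with edgeR adjusted p of 0.492 or more.

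The Tra2 genes encode SR-like activators of GAA-rich exonic enhancers. Tra2a (chr6:49243921-49264052) measured 26.0, 32.6, 34.5 and 32.1 CPM in KO livers, against 18.6, 21.3, 29.0 and 21.5 CPM in WT livers. WT replicate 3 alone lay inside the KO range, above KO replicate 1. The log2 fold change was 0.47 (SE 0.14, edgeR adjusted p = 0.0746), and it was 0.52 among the 4-digit animals and 0.20 among the others. With the number series as a covariate it was 0.40, and the gene was called (edgeR adjusted p = 0.0479). Without WT replicate 3 it was 0.61 (edgeR adjusted p = 0.00598), in a fit that called 4.75% of all genes higher. That fit has no WT library of the number series of WT replicate 3. Tra2a was called in 5 of 18 alternatives. Tra2b measured 22.4, 29.4, 24.7 and 22.9 CPM in KO livers, against 27.2, 27.0, 28.9 and 24.3 CPM in WT livers, with overlapping groups (log2 fold change −0.11, edgeR adjusted p = 0.651). The length-scaled ratio of Tra2b to Tra2a within a library was 0.242 to 0.306 in KO livers and 0.339 to 0.495 in WT livers, with no overlap.

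**Figure D4:**
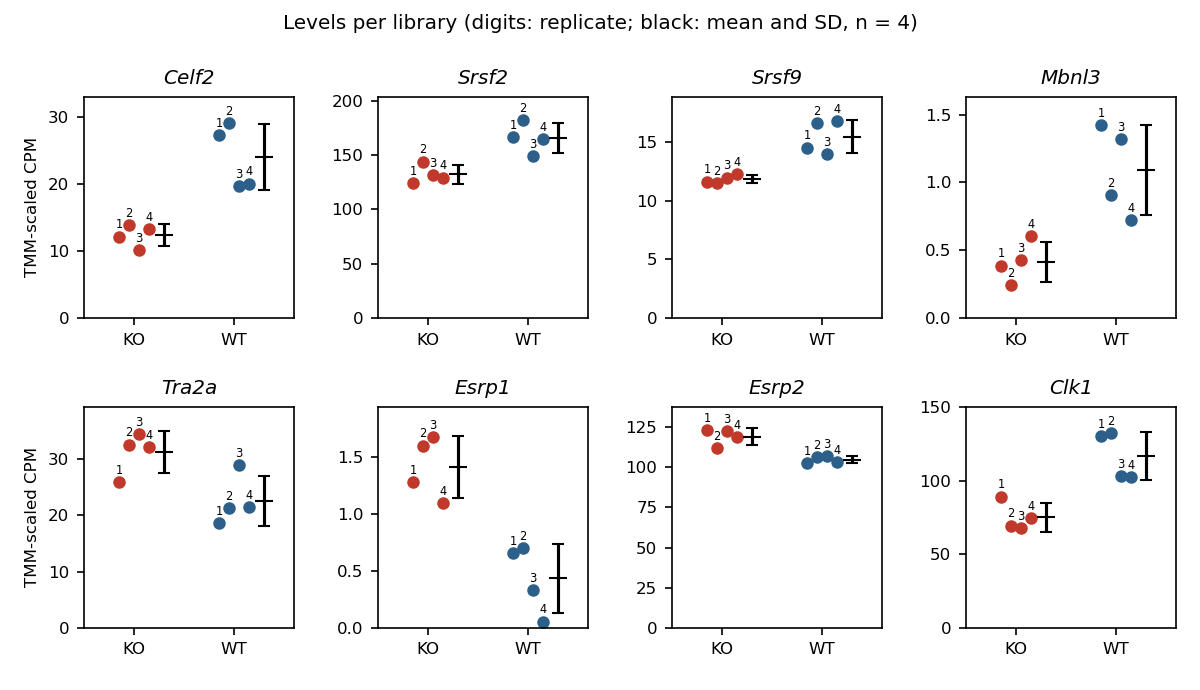
CPM in each KO and WT library for 7 splicing regulators and the kinase gene Clk1, with the mean and SD in black; each panel has its own axis starting at 0. Celf2 lies at 10.1 to 13.9 CPM in KO libraries and 19.7 to 29.1 in WT libraries, and in the Tra2a panel WT replicate 3 (29.0 CPM) lies within the KO range.

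All 20 hnRNP genes had overlapping groups and an interval within 1.5-fold, as did all PTB, RBM and U2AF genes. None was called by edgeR, DESeq2 or limma-voom over all 8 libraries. At an unadjusted p under 0.05, 1 of the 20 hnRNP genes was lower (Hnrnpu, 5%) and 0 were higher, against 8.84% and 9.2% of all genes. Their log2 fold changes ran from −0.32 for Hnrnpu to 0.11 for Hnrnpc, with a median of −0.08. Hnrnpa2b1 measured 305, 287, 319 and 323 CPM in KO livers, against 310, 311, 349 and 324 CPM in WT livers, with a log2 fold change of −0.07 (95% interval −0.27 to 0.13, edgeR adjusted p = 0.754). Hnrnpk, a poly-C binder, had a log2 fold change of −0.17, and Hnrnph1, a G-tract binder, one of −0.12. Hnrnpd, which encodes the AU-rich element binder AUF1, had a log2 fold change of −0.00 (95% interval −0.20 to 0.20).

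Hnrnpu encodes a scaffold-attachment protein that binds chromatin-associated RNA. It measured 60.5, 68.5, 63.8 and 54.3 CPM in KO livers, against 81.6, 88.0, 62.1 and 77.7 CPM in WT livers. WT replicate 3 lay among the KO libraries, and the other WT libraries lay above them (log2 fold change −0.32, SE 0.11, edgeR adjusted p = 0.132). Without WT replicate 3 it was −0.42 (edgeR adjusted p = 0.0174), in a fit that called 3.57% of all genes lower. That fit has no WT library of the number series of WT replicate 3, and of 18 alternatives it was the 1 that called Hnrnpu. Of the exon bases of Hnrnpu 30.8% are shared with another annotated gene on the same strand, and reads over them were not counted for either gene. The same holds for 24.9% of the exon bases of Hnrnpm, shared with March2, and for 1.06% of those of Hnrnpa3.

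The 3 PTB genes encode repressors that bind pyrimidine tracts, with PTBP2 the neuronal form. Ptbp1 measured 103, 81.9, 100 and 104 CPM in KO livers, against 98.5, 107, 87.9 and 90.2 CPM in WT livers (log2 fold change 0.02, edgeR adjusted p = 0.935). Ptbp3 measured 102, 102, 111 and 112 CPM in KO livers, against 124, 122, 133 and 95.6 CPM in WT livers (log2 fold change −0.15, edgeR adjusted p = 0.489). Ptbp2 measured 17.1, 16.95, 15.9 and 15.6 CPM in KO livers, against 23.2, 22.0, 13.0 and 11.8 CPM in WT livers (log2 fold change −0.10, edgeR adjusted p = 0.858). The WT libraries of Ptbp2 formed a high pair and a low pair on either side of the KO libraries, and all 3 genes overlapped between groups.

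The epithelial regulators Esrp1 and Esrp2 were the 2 genes whose KO libraries all lay above the WT libraries. ESRP proteins direct epithelial exon choice, and ESRP2 is the hepatocyte form. Esrp2 measured 123, 112, 123 and 119 CPM in KO livers, against 102, 106, 107 and 103 CPM in WT livers. The groups were separate by a narrow gap, with a log2 fold change of 0.19 (SE 0.08, edgeR adjusted p = 0.24). Esrp1 (chr4:11331933-11386783) measured 1.28, 1.59, 1.67 and 1.09 CPM in KO livers, against 0.656, 0.699, 0.330 and 0.0555 CPM in WT livers. It rested on 1 to 46 reads per library, and the estimated fold was 3.12 (95% interval 1.52 to 6.43), with a log2 fold change of 1.64 (SE 0.49, edgeR adjusted p = 0.0781). DESeq2 called Esrp1 (adjusted p = 0.0136) and limma-voom did not (adjusted p = 0.0662).

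Markers of bile duct cells were also higher in KO livers. The 16 bile duct markers summed to 424 to 500 CPM in KO livers and 224 to 288 CPM in WT livers. Esrp1 rested on 1 to 18 reads in each WT library and 29 to 46 in each KO library, so its order within a genotype is uncertain. WT replicates 1 and 2, the highest WT libraries in Esrp1, had the lowest marker sums (255 and 224 CPM). KO replicates 3 and 4, the highest and lowest KO libraries in Esrp1, had sums of 499 and 500 CPM. Of 15 tested, 11 rose and 0 fell in KO livers by edgeR (0 lower at an unadjusted p under 0.05, by DESeq2 and by limma-voom), with a median log2 fold change of 2.04. Epcam, a bile duct surface protein, measured 5.88, 7.84, 9.13 and 9.17 CPM in KO livers, against 1.82, 1.23, 3.04 and 1.55 CPM in WT livers. The 15 other epithelial genes summed to 118 to 135 CPM in KO livers and 86.02 to 105 CPM in WT livers, and 5 of 14 tested rose and 0 fell by edgeR (1 lower at an unadjusted p under 0.05, 0 by DESeq2 and by limma-voom). No marker of these lists was at 0 in all libraries. The part of bile duct cells in the Esrp1 difference was not tested. Stellate cell and fibroblast markers also differed, at 522 to 614 CPM in KO livers and 422 to 474 CPM in WT livers, with 5 of 12 higher and 0 lower by edgeR (0 lower also at an unadjusted p under 0.05, by DESeq2 and by limma-voom).

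The MBNL genes encode zinc-finger proteins that drive adult splicing patterns and oppose CELF proteins on some exons. Mbnl1 measured 113, 133, 113 and 107 CPM in KO livers, against 149, 150, 110 and 127 CPM in WT livers (log2 fold change −0.20, edgeR adjusted p = 0.367). Mbnl2 measured 52.6, 48.9, 58.2 and 52.1 CPM in KO livers, against 68.1, 65.3, 50.8 and 61.0 CPM in WT livers (log2 fold change −0.21, edgeR adjusted p = 0.296). In both genes WT replicate 3 lay within the KO range. The log2 fold change of Mbnl2 was −0.35 among the 4-digit animals and 0.11 among those numbered 98 to 100. It was the 1 regulator below an unadjusted p of 0.05 in edgeR's test of the interaction of genotype with number series (adjusted p = 0.681). Of all genes 6.4% reached that level, and 0 regulators were called for the interaction (0.0205% of all genes). Mbnl3 (chrX:51117269-51206532) measured 0.387, 0.243, 0.427 and 0.602 CPM in KO livers, against 1.42, 0.904, 1.32 and 0.721 CPM in WT livers. Every KO library was below every WT library on 7 to 40 reads per library (log2 fold change −1.41, SE 0.43, edgeR adjusted p = 0.0859).

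The U2AF genes and the RBM genes, which act at the 3′ splice site and in early spliceosome assembly, overlapped between groups in every case. U2af1 measured 8.05, 9.26, 8.62 and 7.18 CPM in KO livers, against 9.19, 10.9, 7.53 and 7.32 CPM in WT livers (log2 fold change −0.08, edgeR adjusted p = 0.853). U2af2 measured 44.7, 40.7, 38.1 and 40.2 CPM in KO livers, against 33.6, 38.6, 34.1 and 45.4 CPM in WT livers (log2 fold change 0.11, edgeR adjusted p = 0.647). Rbm39, which encodes a U2AF-like coactivator, measured 155, 179, 162 and 158 CPM in KO livers, against 166, 171, 142 and 173 CPM in WT livers (log2 fold change 0.01, edgeR adjusted p = 0.984). Rbm5, Rbm10 and Rbm25 had log2 fold changes of −0.05, 0.09 and −0.13.

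Ratios between related regulators within a library do not depend on library scaling. Of 8 ratios compared, 3 were separate between the groups and reached the smallest p that 4 against 4 libraries allow, an exact two-sided permutation p of 0.0286 (0.0762 after Benjamini-Hochberg adjustment over the 8). The log2 ratio of Esrp1 to Esrp2 was higher in KO livers by 1.85 (SE 0.73), and by 1.17 without WT replicate 4, which held 1 Esrp1 read. The log2 ratio of Mbnl3 to Mbnl1 differed by −1.18 (SE 0.41) and that of Tra2b to Tra2a by −0.60 (SE 0.15). For Mbnl3 to Mbnl1 the groups almost met, at a ratio of 0.0124 in KO replicate 4 and 0.0126 in WT replicate 4. These libraries held 16 and 13 Mbnl3 reads. The other 5 ratios overlapped, with differences of −0.05 for Ptbp2 to Ptbp1, −0.16 for Ptbp3 to Ptbp1, −0.01 for Mbnl2 to Mbnl1, −0.18 for U2af1 to U2af2 and 0.14 for Rbm10 to Rbm5. Their exact permutation p ran from 0.286 upwards.

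The wider splicing machinery gave 3 calls, all lower, in lists of 35, 40 and 75 tested genes. Of all genes 1.37% were called lower and 2.32% higher, and at an unadjusted p under 0.05 the shares were 8.84% and 9.2%. Clk1, a kinase that phosphorylates SR proteins, measured 89.3, 69.5, 67.7 and 74.7 CPM in KO livers, against 130, 132, 103 and 102 CPM in WT livers. It fell without overlap (log2 fold change −0.64, SE 0.12, edgeR adjusted p = 0.0082) and was called in all 18 alternatives, among them the one with a single WT library. Rsrp1, an arginine and serine rich protein gene, measured 301, 217, 260 and 264 CPM in KO livers, against 393, 420, 395 and 320 CPM in WT livers. It also fell without overlap (log2 fold change −0.55, SE 0.12, edgeR adjusted p = 0.0211), and 13 of 18 alternatives, among them the one with a single WT library, called it, with adjusted p up to 0.0958. The call was lost without WT replicate 2 and without KO replicates 2, 3 or 4, each alone. It was also lost among the 4-digit animals, where the log2 fold change was −0.54. These were 2 of 35 tested SR-related genes and kinases. None rose by edgeR, DESeq2 or limma-voom, while DESeq2 called 3 lower and limma-voom 2. At an unadjusted p under 0.05, 1 was higher and 8 were lower, and the median log2 fold change of the list was −0.09.

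Among 40 tested hnRNP-like factors, 1 fell and 0 rose, also by limma-voom, with 4 lower and 0 higher by DESeq2 and 6 lower and 0 higher at an unadjusted p under 0.05. The one called was Pcbp2, a poly-C binder of mRNA stability and translation, with 169, 171, 164 and 181 CPM in KO livers, against 233, 266, 214 and 211 CPM in WT livers. Its log2 fold change was −0.43 (SE 0.10, edgeR adjusted p = 0.0276), and 10 of 18 alternatives called it, with adjusted p up to 0.146. Leaving out a single library kept the call only where that library was WT replicate 3 or 4. Among the 4-digit animals the call was lost as well, with a log2 fold change of −0.47. The value was −0.31 among the animals numbered 98 to 100, where WT is 1 library and Pcbp2 was not called either. Of 75 core spliceosome genes edgeR and limma-voom called 0, DESeq2 called 2 higher and 1 lower, and 5 were higher and 2 lower at an unadjusted p under 0.05. Nearest to the threshold were the helicase genes Snrnp200 (log2 fold change 0.38, edgeR adjusted p = 0.0532) and Ddx23 (−0.41, edgeR adjusted p = 0.0553). Both were called without WT replicate 3 (edgeR adjusted p = 0.00433 for Snrnp200 and 0.0343 for Ddx23), and Ddx23 also without KO replicate 1 (0.0358). Each was called in 6 of 18 alternatives, for Ddx23 among them the one with a single WT library. The median over the core list was 0.02. Proliferation markers, which often move with splicing factor genes, summed to 34.6 to 46.3 CPM in KO livers and 38.2 to 62.6 CPM in WT livers, and edgeR, DESeq2 and limma-voom called 0 of 14 (0 higher and 1 lower at an unadjusted p under 0.05).

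The annotated transcripts of the regulators differ from those of other genes in ways the counts cannot resolve. A transcript labelled for nonsense-mediated decay is annotated for 31 of the 50 regulators (62.0%), against 28.3% of 12785 tested protein-coding genes. The share was 81.8% of the SR genes and 50% of the hnRNP genes. A retained-intron transcript is annotated for 78.0% of the regulators and 58.6% of the tested genes. The regulators also have more annotated transcripts, a median of 9 per gene against 5, and the shares were not adjusted for this. Counts per gene sum productive and decay-bound isoforms, so a level here is not a measure of protein-coding mRNA or of splicing.

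The AU-rich nonamer TTATTTATT, a classical element of unstable mRNAs, was searched on the sense strand of annotated 3′UTRs (GENCODE M21). It was found in 2 of 49 regulators (4.08%), against 7.89% of 12732 tested protein-coding genes. Both sites are shown because they are the only full nonamers among the regulators, with the nonamer in capitals and as DNA.
Mbnl2, chr14:120431217-120431241 (GRCm38), plus strand: tttgctttTTATTTATTtataatgt
Tra2a, chr6:49244043-49244067 (GRCm38), minus strand: gacaacctTTATTTATTaactagaa
The shorter ATTTA pentamer was in 87.8% of the regulators and 69.8% of the tested genes. The median 3′UTR was 1468 bases in the regulators and 1166 bases in the tested genes, and the pentamer occurred 1.87 and 1.30 times per kb. The regulators' 3′UTRs were also richer in A and T (median 63.2% against 55.5%), and the pentamer values were not adjusted for this. Celf2 held 12 pentamers in 7381 bases, Esrp1 held 1, and Srsf9 held 0. A match is only a stretch of letters, and binding by HuR was not measured.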

How the data were processed

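Per the labels' protocols, liver RNA was extracted with a Nucleospin RNA II kit and made into mRNA-enriched directional libraries. The authors deposited raw read counts per gene. Per the submitters' processing notes, bcl2fastq 2.19.1, GSNAP and featureCounts 1.5.1 were used on mm10 (GRCm38). Per the file headers, counting used Ensembl 81 genes, strand setting 2 and a minimum mapping quality of 1, and no option for multi-mapping or multi-gene reads is recorded, so such reads are taken as left out. The other deposited column used, exon length per gene row, served to give CPM per kb. The 92 spike-in rows held 0 counts.

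Counts were fitted in edgeR 4.0.16 (R 4.3.3): filterByExpr with a minimum count of 10, TMM scaling, and the quasi-likelihood test with robust estimation, all 8 libraries, no covariate, Benjamini-Hochberg adjustment over 14645 genes. Alternatives were other scalings, DESeq2 1.42.0, limma-voom (limma 3.58.1), other filters, a replicate block, the animal number series as a covariate or as subsets, and leaving out each library. Ratios used a pseudocount of 0.5 counts and exact two-sided permutation tests (SciPy 1.17.1). Mice are separate animals, so p-values measure the spread between these mice. All pairs of libraries differed beyond sampling noise (chi-square per degree of freedom 16.7 or more). Replicate numbers did not pair the libraries.

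Tested on counts simulated for KO against WT over 14465 genes, the edgeR step found 24 of the 50 with a 1.5-fold change. For 2-fold changes it found 39 of 50, for 3-fold ones 46 and for 4-fold ones 48. Of the 14265 left unchanged it called 14.

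The regulators, the 12 other gene lists and the rules were chosen with earlier results of these data known. Values per library are given for regulators called or without overlap, the 5 smallest p in each direction, the highest of each family, and all Esrp, Ptbp, Mbnl, Tra2 and U2af genes. Of other lists, up to 4 called genes or up to 2 with the smallest p may be named, and other regulators are given by their fold change. Symbols came from a gene name table, which matched 45143 of 45706 identifiers.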

Additional observations from a re-analysis of the deposited data

Results flagged for a closer look

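In 100 groups of 4 libraries (each regulator in each genotype), 4 values stood further from the other 3 than Dixon's criterion allows, and chance alone gives about 1 in 20 groups. Srsf11 measured 136 CPM in WT replicate 2, against 113 to 116 CPM in the other WT libraries. Hnrnpa3 measured 37.5 CPM in WT replicate 3, against 29.0 to 29.9 CPM in the other WT libraries. WT replicate 3 is the only WT library among the animals numbered 98 to 100, where the log2 fold change of Hnrnpa3 was −0.45. Hnrnpll measured 44.1 CPM in KO replicate 2, against 38.8 to 39.1 CPM in the other KO libraries. Srsf12 measured 0.0364 CPM in WT replicate 1, which is 1 read, against 0 in the other WT libraries.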

How the results depend on the processing

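Celf2 and Clk1 were lower and called in all 18 alternatives, of which the fit of animals numbered 98 to 100 has 1 WT library, assumed to vary like the KO libraries, whereas the counts of calls moved. Regulators called higher (0) became 2 by DESeq2, 2 with no low-count filter, 1 with the replicate block, 1 with the number series as covariate and 0 to 1 when each library was left out. Regulators called lower (1) became 4 by DESeq2, 2 among animals numbered 98 to 100 and 1 to 4 on leaving out a library, with 4 in the fit without WT replicate 3. Over all genes, 340 higher became 613 (DESeq2), 215 (4-digit animals) and 151 to 710 (a library left out), and 201 lower became 495 (DESeq2), 328 (no filter), 308 (covariate), 528 (numbered 98 to 100) and 71 to 534. Among hnRNP-like factors 1 lower became 4 (DESeq2), 2 (no filter), 2 (block), 2 (covariate), 0 (4-digit), 2 (98 to 100) and 0 to 4. SR-related genes, 2 lower, gave 1 among 4-digit animals and 1 to 3. Core spliceosome genes, 0 higher and 0 lower, gave 1 higher by upper quartile scaling, 2 by DESeq2, 1 with no filter, 1 with a stricter one, 1 with the covariate and 0 to 1, and 1 lower by DESeq2, 1 with no filter, 1 with the covariate, 1 among animals numbered 98 to 100 and 0 to 2. The regulators' median of −0.09 was −0.015 among animals numbered 98 to 100 and −0.12 to −0.07 on leaving out a library.

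Differences in log2 ratio changed sign for Ptbp2 to Ptbp1 (0.000874 among 4-digit animals, 0.065 among those numbered 98 to 100, −0.19 to 0.094 on leaving out a library) and Mbnl2 to Mbnl1 (0.12 among animals numbered 98 to 100, −0.068 to 0.095). Among animals numbered 98 to 100, Rbm10 to Rbm5 was −0.14 and Ptbp3 to Ptbp1 −0.47. Log2 fold changes that changed sign there were those of Mbnl2 (0.11), Ptbp2 (0.28), Rbfox2 (−0.015), Srsf5 (−0.0093), Srsf7 (−0.010), U2af1 (0.065) and Rrm2 (0.26). Among 4-digit animals they were Ptbp1 (−0.085), Rbm39 (−0.022) and Srsf5 (−0.021), and with the covariate Srsf5 (−0.017). On leaving out a library the range crossed 0 for Ptbp1 (−0.014 to 0.092), Ptbp2 (−0.24 to 0.068), Rbm39 (−0.055 to 0.036), Srsf5 (−0.011 to 0.13) and U2af1 (−0.15 to 0.045). The cause of these shifts was not tested.

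Of 969 values of 54 named genes, 894 kept their direction and side of the threshold, 31 became called, 23 lost their call and 21 changed sign. Same-numbered libraries deviated together with correlations of 0.025, 0.025, 0.12 and −0.15, so the numbers were not used as pairs. WT replicate 3 had correlations of 0.12 and 0.22 with KO replicates 3 and 4, which share its number series. With KO replicates 1 and 2 they were −0.12 and −0.20. The main fit did not adjust for the number series. With the replicate block, Tra2a was called higher (log2 fold change 0.48, edgeR adjusted p = 0.0278) and Celf2 lower. In simulation 24 of 50 changes of 1.5-fold were found, so smaller differences can be missed at this depth and spread. Esrp1, Mbnl3 and Srsf12 rest on few reads.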
